A study of Mus musculus with 8 samples.

Results

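The cells described here are the vascular smooth muscle cells of the mouse hippocampus, 125 of 5205 cells, chosen by their content of contractile RNAs. Vascular smooth muscle cells form the contractile wall of arteries and arterioles. Their actin and myosin filaments shorten when calcium and calmodulin activate myosin light chain kinase, and they relax through cyclic GMP, cyclic AMP and myosin phosphatase. In the brain these cells set the width of the vessels that feed the capillary bed, and they share a mural lineage and Notch3 signalling with the pericytes of the capillaries.

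The data were single-cell RNA profiles of the dissociated, cryopreserved hippocampus of 8 mice. All were wildtype (a/a) mice killed at 5 months after saline perfusion. The 4 Pb mice (females F1 and F2, males M1 and M2) had mothers whose drinking water held 32 ppm Pb-acetate from 2 weeks before mating through gestation and lactation, and the 4 control mice (females F1 and F2, males M1 and M2) had unexposed mothers. The treatment label of the controls is control diet. The offspring drank Pb-free water after weaning, so the exposure was perinatal and the measurement came in adulthood. Each litter gave at most 1 male and 1 female, and the labels do not tie mice to litters.

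A cell was taken as a vascular smooth muscle cell when Acta2, Tagln, Myh11, Myl9 and Cnn1 together made up at least 0.25% of its unique molecular identifiers (UMIs, each standing for 1 captured RNA molecule) and mitochondrially encoded genes at most 20%. Of 5258 cells with 17143 genes, 53 exceeded the mitochondrial maximum and 125 of the 5205 kept cells passed. The measured UMIs of these genes chose the cells, so every level of a gene in them against other cells is a description and was not tested. There were 18, 7, 35 and 22 such cells in Pb F1, F2, M1 and M2, and 5, 6, 19 and 13 in control F1, F2, M1 and M2. They held 48511 to 286197 UMIs per mouse, at a median of 6841 UMIs per cell. Kept cells numbered 211 to 1167 per mouse, with medians of 5551 to 6475 UMIs. Levels below are CPM, UMIs per 1000000 UMIs of the smooth muscle cells of 1 mouse.

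Libraries shared cell barcodes, and cells with such a barcode were a larger share of the smooth muscle cells than of the other cell sets. In all, 32 barcodes occurred in more than 1 library, and 2 of them occurred in all 8 libraries. All 16 cells with those 2 barcodes, 2 per mouse, passed the rule. Cells with a shared barcode of any kind made up 12.8% of the smooth muscle cells (16 of 125), 16 of the 444 cells of the pericyte comparator, 29 of the 1319 of the endothelial comparator (both defined below) and 0.904% of the 3317 other kept cells. The first barcode had 49648 UMIs in control M1 and 2110 to 3574 elsewhere, and the second had 71043 UMIs in control F1 and 3433 to 5976 elsewhere. Some RNAs of the deep cells recurred in their copies and others hardly did. In the 4 males all 6 UMIs of Xist, the female-expressed X-inactivation RNA, that fell in smooth muscle cells lay in copies of the second barcode, whose deepest copy came from a female and held 43 Xist UMIs. The hemoglobin gene Hbb-bs had 754 UMIs in that deepest copy and 32 to 80 in each of its 7 other copies, against 0 to 7 in the copies of the first barcode. Hba-a1, another hemoglobin gene, had 465 UMIs in the deepest copy of the second barcode and 1 to 5 in the others. The Y-linked Ddx3y had 14 UMIs in the deepest copy of the first barcode, which came from a male, 1 in each of the 3 other male copies and 0 in the 4 female copies. The deepest cell held 65.1% of the smooth muscle UMIs of control F1, 56.3% of control F2, 33.1% of Pb F2 and 24.0% of control M1, the first and last being the deep copies named above. Without the 16 cells, 109 remained, namely 16, 5, 33 and 20 per Pb mouse and 3, 4, 17 and 11 per control. Results of the exposure and sex comparisons that bear on them are given with and without them.

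Many of the 125 cells also carried RNA of other vascular cells. Of them, 88 (70.4%) had the pericyte genes Kcnj8, Abcc9, Vtn, Higd1b and Atp13a5 at 0.1% of UMIs or more, and 73 (58.4%) had the endothelial genes Cldn5, Flt1, Pecam1, Cdh5 and Ly6c1 at 0.25% or more. Both applied to 55 cells and neither to 19. The same endothelial level was met by 311 of the 444 cells of the pericyte comparator, which are the kept cells outside the rule with pericyte genes at 0.1% or more. The endothelial comparator is the 1319 remaining cells above the endothelial level. Cells above the endothelial level had a median of 9908 UMIs and those below it 5232. Among the 48 cells with the rule's genes at 1% or more the order was the reverse, at 3670 and 6048 UMIs. The low median came from copies of the 2 barcodes found in all 8 libraries. Among these cells above the endothelial level, the copies held 2110 to 3766 UMIs and the cells without a shared barcode 5371 to 18441. Scrublet, a doublet caller, marked 33 cells of the series and 1 of the 125.

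The strength of the smooth muscle signal sorted the cells. Among the 49 cells between 0.25% and 0.5% of UMIs, 65.3% were above the endothelial level and the summed pericyte markers (10 genes) had a median of 0.899% of UMIs. Among the 28 cells between 0.5% and 1%, 89.3% were above the endothelial level, at a median depth of 10482 UMIs. Of the 48 cells at 1% or more, 33.3% were above it, and of the 19 cells at 2% or more, 1 was (5.26%), while 13 of those 19 were below both levels. The 16 cells of the shared barcodes, at 0.611% to 1.87%, were all above the endothelial level and count in the 89.3% and the 33.3%. At the threshold itself the cells formed a continuum. The 19 cells just inside it (0.25% to 0.3%) and the 26 just outside (0.2% to 0.25%) had medians of 0.267% and 0.222%, with 68.4% and 84.6% above the pericyte level. Acta2, Tagln, Myh11 and Myl9 are both smooth muscle markers and genes of the rule, so the sorting itself fixed their rise along the range. The markers outside the rule, Tpm2, Pln and Mylk, were at 2805, 757 and 1923.5 CPM pooled over cells at 1% or more. Below 0.5% they were at 298, 47.6 and 534 CPM. The lower part of the range carried smooth muscle RNA together with pericyte and endothelial RNA.

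**Figure D1:**
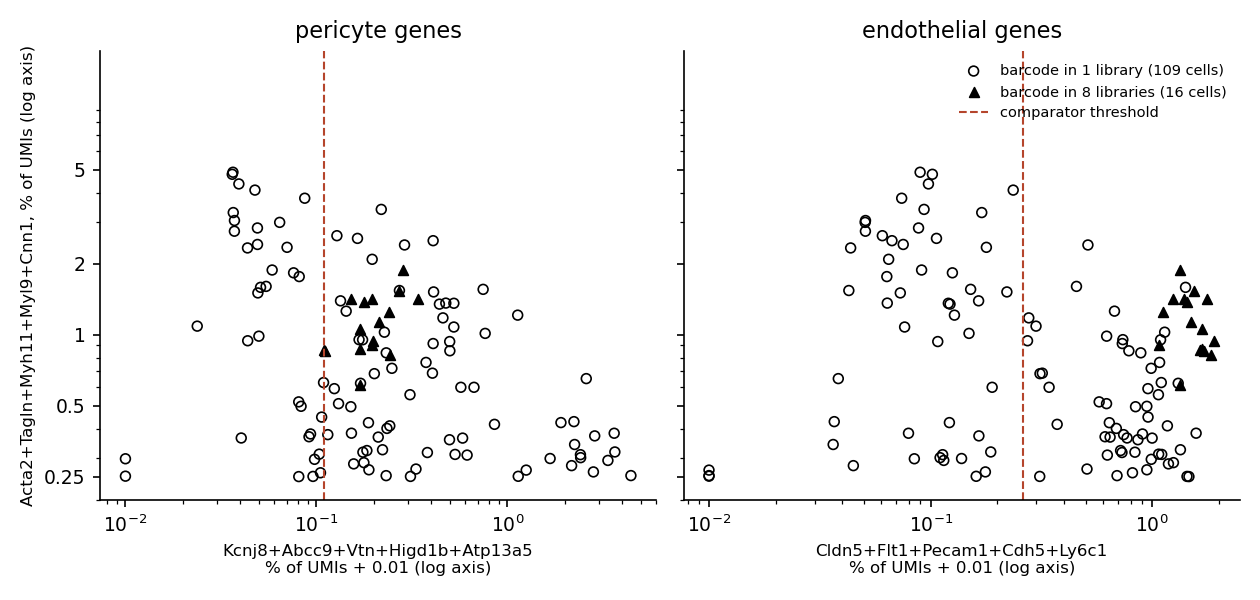
Each point is 1 of the 125 vascular smooth muscle cells. The vertical axis is the percent of UMIs in the 5 genes of the rule and the horizontal axes are the percents in 5 pericyte genes and 5 endothelial genes (log axes, with 0.01 added on the horizontal ones). Triangles are the 16 cells of the 2 barcodes found in all 8 libraries, which all lie to the right of the endothelial threshold (dashed).

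The genes of the rule and the markers of the type give the profile of the contractile wall. Acta2, the smooth muscle alpha-actin of the thin filament, had 2606, 4288, 4602 and 2974 in Pb F1, F2, M1 and M2 and 2366, 2637, 2722 and 3618 in control F1, F2, M1 and M2 (CPM; mean 3226 ± 842, SD, n = 8 mice), against 59.6 in the pericyte comparator. Every mouse was far above its pericytes. Myh11, the smooth muscle myosin heavy chain, had 573, 1196, 919 and 591 in Pb F1, F2, M1 and M2 and 724, 947, 584 and 1045 in control F1, F2, M1 and M2 (CPM; mean 822 ± 238, SD, n = 8 mice), against 29.1 in the pericyte comparator. Tagln, the actin-bundling protein transgelin, had 1749, 2474, 3281 and 2224 in Pb F1, F2, M1 and M2 and 2256, 2409.9, 2162 and 2708 in control F1, F2, M1 and M2 (CPM; mean 2408 ± 448, SD, n = 8 mice), against 58.4 in the pericyte comparator. Myl9, the regulatory light chain that the kinase phosphorylates, was the rule's least selective gene, at a mean of 2726 CPM against 533 in the pericyte comparator and 26.5 in the other kept cells. Cnn1, the actin-binding inhibitor calponin, was sparse, with 67 UMIs in 17 cells. It was listed at 37.0, 0, 122 and 64.5 CPM in Pb F1, F2, M1 and M2 and at 0, 0, 0 and 103 in the controls.

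The 3 markers outside the rule followed the same pattern. Tpm2, the beta-tropomyosin that lies along the actin filament, had 751, 1443, 1534 and 1008 CPM in the Pb mice (F1, F2, M1, M2) and 743, 947, 922 and 1116 CPM in the controls in the same order, against a pericyte mean of 64.5. Pln, phospholamban, which restrains the calcium pump of the sarcoplasmic reticulum, had 73.9, 412, 342 and 209 CPM in the Pb mice (F1, F2, M1, M2) and 156, 206, 193 and 499 CPM in the controls in the same order. Its pericyte mean was 4.00 CPM, and Pb F1 was the lowest of the 8 mice and control M2 the highest. Mylk, the myosin light chain kinase itself, averaged 961 ± 226 CPM against 183 in the pericyte comparator. All 8 mice had more of each of these 3 RNAs in the smooth muscle cells than in their own pericytes. Without the shared barcodes the Pb and control means were 3651 and 3069 CPM for Acta2, 1212 and 968 for Tpm2 and 289 and 310.2 for Pln.

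Detection in single cells gave the same order. With every cell thinned to 3000 UMIs (14 shallower smooth muscle cells left out), 74.8% of the smooth muscle cells, 18.1% of the pericyte comparator and 2.84% of the other kept cells had a Tpm2 UMI; the unthinned shares were 86.4%, 32.9% and 6.54%. For Pln the thinned shares were 37.8%, 1.07% and 0.381%, and the unthinned ones 48.0%, 3.15% and 1.30%. The endothelial junction gene Cldn5 was found in 76.6% of the thinned smooth muscle cells and in 86.1% of the thinned pericyte comparator. Of the thinned other kept cells, which are below the endothelial level, 43.8% had it. Median depths were 6841, 7308 and 6208 UMIs in the 3 sets.

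As a description, genes were ranked to give the 20 with the highest ratio of mean level over that of the rest of the kept cells, among those at 50 CPM or more. Tagln stood 137-fold, Acta2 120.3-fold, Pln 113-fold, Myh11 86.4-fold and Tpm2 56.8-fold the level of the rest. Genes of the thin filament and Z-line-like dense bodies were among them, with Lmod1, an actin nucleator, 45.6-fold, Pdlim3 67.0-fold, Nexn 38.3-fold and Palld, palladin, 29.5-fold. Others were Pde3a, a phosphodiesterase that breaks down cyclic AMP and cyclic GMP (31.4-fold), the sodium channel subunit Scn4b (56.5-fold), the amine oxidase Aoc3 (69.6-fold), the olfactory receptor Olfr558 (41.1-fold) and the synuclein Sncg (32.4-fold). Dhx58os, Crispld2, Map3k7cl, Fbxl22, Nrip2 and Mustn1 completed the 20. In 17 of the 20 every mouse had a higher level in these cells than in its pericytes. The exceptions were Dhx58os, Fbxl22 and Olfr558, each higher in 7 of 8 mice.

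**Figure D2:**
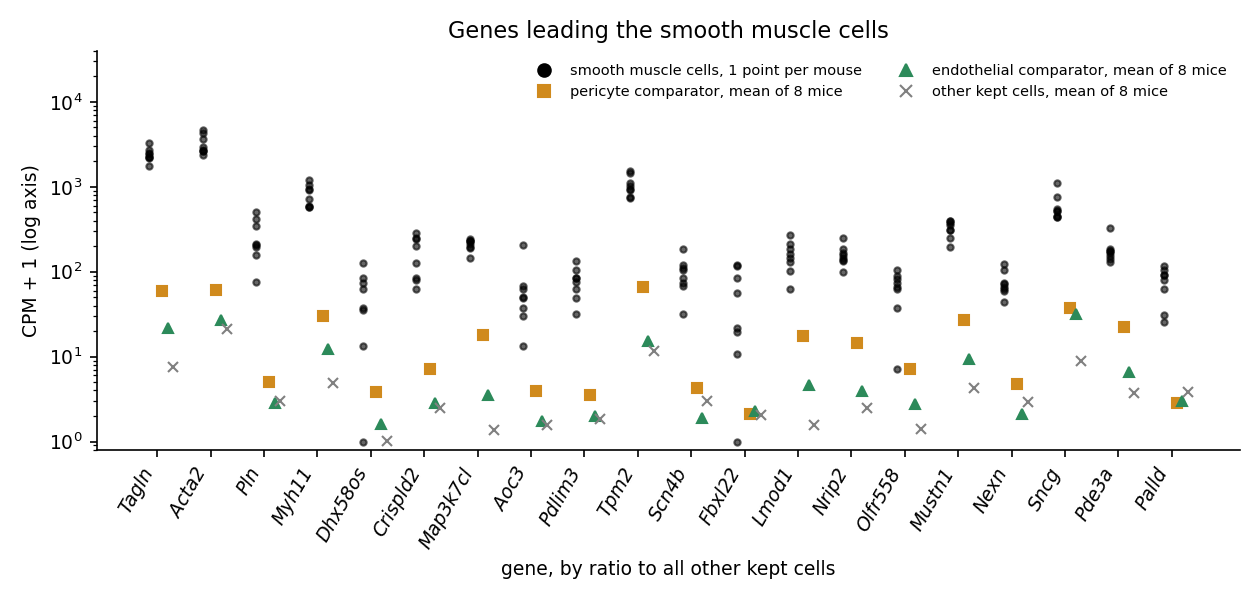
Level (CPM + 1, log axis) of the 20 genes that lead the vascular smooth muscle cells. Black points are the 8 mice, and the other symbols are the means over 8 mice of the pericyte comparator, the endothelial comparator and the other kept cells. The black points of Tagln, Acta2, Myh11 and Tpm2 lie at least 10 times above each of those means.

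Serum response factor drives many smooth muscle genes through the CArG box, a pair of cytosines and a pair of guanines that enclose A or T bases. The 250 bases before each RefSeq start (build GRCm38.p6) were searched for it. The pattern of the exact box is the same on both strands, although the bases of a single box can differ between them. An exact box was present in 439 of 27025 genes (1.62%). Of the 20 leading genes 12 had a window and 1 of them held an exact box (Fbxl22), and of the 31 genes of the actin-myosin list 26 had a window and 5 held one (Filip1l, Ldb3, Myl6, Myl9 and Vcl; 19.2%). An exact box or one with a single G or C among its inner bases was present in 9 of those 26 genes (34.6%), against 9.78% of all genes. The windows of the rule genes Myl9 and Acta2 and of the F-box gene Fbxl22, a leading gene, are shown because they hold such boxes. Capitals mark the exact box in Myl9 and Fbxl22 and the boxes with 1 inner base off in Acta2. The Myl9 window also holds a box with 1 inner base off, which is left in small letters.
Myl9, chr2:156775214-156775463, plus strand: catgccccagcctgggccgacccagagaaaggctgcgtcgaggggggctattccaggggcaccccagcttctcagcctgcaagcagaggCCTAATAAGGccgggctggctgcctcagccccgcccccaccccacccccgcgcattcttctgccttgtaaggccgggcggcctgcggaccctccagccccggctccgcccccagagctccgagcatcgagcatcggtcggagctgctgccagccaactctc
Fbxl22, chr9:66514594-66514843, minus strand: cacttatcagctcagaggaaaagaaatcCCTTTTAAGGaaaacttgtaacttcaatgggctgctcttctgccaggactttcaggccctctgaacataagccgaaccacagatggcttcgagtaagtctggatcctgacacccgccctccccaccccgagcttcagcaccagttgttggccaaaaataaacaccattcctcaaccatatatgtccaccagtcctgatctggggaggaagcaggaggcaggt
Acta2, chr19:34255374-34255623, minus strand: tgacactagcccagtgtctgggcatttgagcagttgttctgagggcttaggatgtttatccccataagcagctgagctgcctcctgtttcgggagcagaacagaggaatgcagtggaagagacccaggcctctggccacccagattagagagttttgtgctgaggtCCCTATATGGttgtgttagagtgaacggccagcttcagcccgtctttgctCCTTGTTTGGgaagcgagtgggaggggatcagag
The exact box begins 161 bases before the start in Myl9 and 222 bases before it in Fbxl22. In Acta2 the marked stretches begin 84 and 34 bases before the start. A match is a stretch of letters and not a measured binding site.

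Fbxl22 marked the strongest cells. It was listed at 18.5, 82.5, 115 and 54.6 CPM in the Pb mice and 0, 20.6, 9.65 and 119 CPM in the controls, from 69 UMIs in 23 cells. Pooled over cells it was 221 CPM at 1% of UMIs or more, 4.90 between 0.5% and 1% and 2.07 below 0.5%. Cnn1 ran alike, at 214, 4.90 and 2.07 CPM. Pln and Nexn were also concentrated at the top, with 757 and 191 CPM against 47.6 and 12.4 below 0.5%. Others were flatter: Notch3, the mural Notch receptor, was 432 CPM at the top and 576 at the bottom. The pericyte potassium channel gene Kcnj8 ran the other way, from 257 to 36.9 CPM, as did Vtn, from 3155 to 1106, and Abcc9, the partner subunit of Kcnj8, from 112 to 6.70. The cells were sorted here by genes of the same cells, so these values describe the rule's range.

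Set beside the pericyte comparator of the same mice, gene lists of smooth muscle function differed unevenly. The actin-myosin list (30 of 31 genes in the table, all with UMIs) summed to 22506 ± 3859 CPM (SD, n = 8 mice) against 6962. It holds the 5 genes of the rule (9224 CPM), so the selection itself raised it. The other 25 genes of the list summed to 13282 ± 2066 CPM against 6282, higher in 8 of 8 mice. Tpm1 averaged 1247 CPM, 4.39-fold the pericyte mean, the actin cross-linker Flna 632 CPM, 5.94-fold, and Csrp1 579 CPM, 2.93-fold. The non-muscle light chain genes Myl12a and Myl12b were 0.904-fold and 0.880-fold, above the pericytes in 2 of 8 mice each.

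Calcium and ion channel genes summed to 4981 ± 397 CPM against 3585, again higher in 8 of 8 mice. The calcium pump Atp2a2, which Pln restrains, was 2.56-fold the pericyte level, the plasma membrane pump Atp2b4 7.12-fold, the background potassium channel Kcnk3 5.05-fold and Kcnmb1, the subunit that tunes the large-conductance calcium-activated potassium channel, 3.98-fold. Each was higher in 8 of 8 mice. The ATP-sensitive potassium channel genes Kcnj8 and Abcc9, which are pericyte genes used to pick the comparator, were 0.374-fold and 0.269-fold.

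Of the relaxation genes (sum 3607 ± 237 against 2856 CPM, 8 of 8 mice higher), Pde3a was 8.46-fold, the cyclic AMP producer Adcy5 5.19-fold, Mrvi1, a target of cyclic GMP-dependent kinase at calcium stores, 4.81-fold, and the nitric oxide receptor subunits Gucy1b3 and Gucy1a3 1.45-fold and 1.63-fold. Notch genes summed to 3049 ± 341 against 2302 CPM (8 of 8 mice higher), with Notch3 2.04-fold, the target Nrarp 2.34-fold and the ligand Jag1 2.20-fold.

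The summed vasoactive receptors and the summed growth factor genes were lower than in the pericytes in 8 of 8 mice. The receptor list (41 genes in the table, 38 with UMIs) summed to 1599 ± 177 against 1889 CPM, and to 1942 CPM in the endothelial comparator. Within it the neuropeptide Y receptor Npy1r (4.70-fold) and Ramp1 (4.09-fold), a subunit of the receptor for the dilator peptide CGRP, were higher in 8 of 8 mice, the endothelin receptor Ednra (1.47-fold) in 6, and the adrenomedullin receptor subunit Ramp2 (0.662-fold) in none. The growth factor list, which holds the endothelial gene Flt1, summed to 9238 against 11059 CPM, and to 9434 CPM in the endothelial comparator. Of the 444 cells of the pericyte comparator 311 were above the endothelial level, and the part of endothelial RNA in both sums was not tested. Of the growth factor genes, Pdgfa was 3.71-fold, Pdgfrb, the mural receptor of platelet-derived growth factor, 0.896-fold, and Ptn, Cxcl12 and Igf1r 0.445-fold, 0.424-fold and 0.426-fold. Matrix genes summed to 11929.9 ± 1145 against 11844 CPM and were higher in 3 of 8 mice. Vtn, a matrix gene at 3156 to 5009 CPM in the pericytes, is among the genes used to pick the comparator. That choice itself raised its level and the matrix sum there. Timp3 and Mgp, inhibitors of matrix breakdown and of calcification, were 1.84-fold and 2.05-fold the pericyte level, and Vtn and Fn1 0.495-fold and 0.599-fold. Metal-handling genes summed to 11551 ± 1129 against 12604 CPM and were lower in 8 of 8 mice. The metallothionein Mt2 was 0.312-fold, the transferrin receptor Tfrc 0.216-fold and the iron exporter Slc40a1 0.216-fold the pericyte level.

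The first comparison was of how many of the recovered cells were vascular smooth muscle. As a share of kept cells, with 95% Wilson intervals that cover counting error only, they were 1.54% (0.978 to 2.42%), 1.48% (0.720 to 3.03%), 3.21% (2.32 to 4.44%) and 2.59% (1.71 to 3.88%) in Pb F1, F2, M1 and M2. The control shares were 2.37% (1.02 to 5.43%), 1.05% (0.483 to 2.28%), 5.15% (3.32 to 7.90%) and 2.73% (1.60 to 4.62%) in the same order. The groups overlapped, and control M1 was the highest of all. The mean was 2.21% ± 0.841 in Pb and 2.83% ± 1.71 in controls (SD, n = 4 each; two-sided exact permutation p = 0.629). Without the shared barcodes the means were 1.98% and 2.32% (exact p = 0.800). The sign of the difference rests on control M1: without it the Pb mean was higher by 0.155 percentage points.

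The share was higher in each male than in each female, a comparison added after the values were seen. The 4 males lay between 2.59% and 5.15% and the 4 females between 1.05% and 2.37%, with no overlap. The means were 3.42% ± 1.18 and 1.61% ± 0.550 (SD, n = 4 each), a difference of 1.81 percentage points (two-sided exact permutation p = 0.0286, the smallest that 4 against 4 can give; 0.0571 adjusted over the 2 comparisons of the share). Both exposure groups showed it. Without the shared barcodes the means were 3.13% and 1.17% (exact p = 0.0286), and without the cells above the endothelial level 1.51% and 0.537% (exact p = 0.0286). Of all vascular cells (smooth muscle plus both comparators) the share was 8.90% in males and 4.42% in females (exact p = 0.0286). At a threshold of 0.5% of UMIs the groups overlapped (exact p = 0.0571), as they did at 1% (exact p = 0.0857). The pericyte comparator was 9.43% of kept cells in males and 8.23% in females (exact p = 0.543). Tissue dissociation, freezing and cell capture stand between the vessel and these shares, and their part was not tested.

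**Figure D3:**
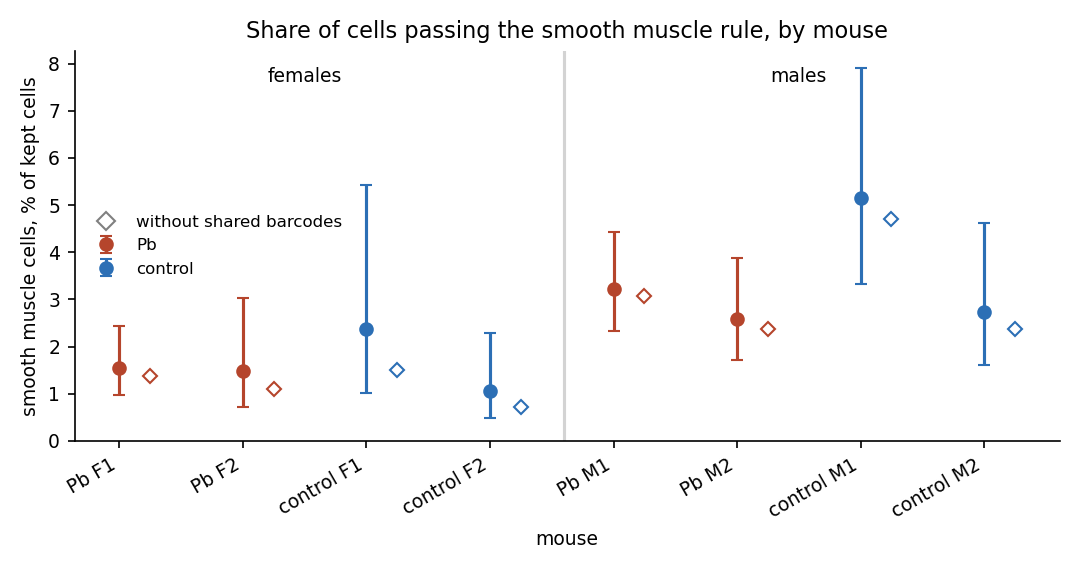
Vascular smooth muscle cells as a percent of kept cells in each mouse, with 95% Wilson intervals (filled circles), and without the cells of shared barcodes (open diamonds). The 4 males, on the right, all lie above the 4 females, while Pb (red) and control (blue) mice overlap.

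Gene levels of Pb and control smooth muscle cells were compared on UMIs summed per mouse. Only 5 mice had at least 10 such cells, namely Pb F1, M1 and M2 and control M1 and M2, and with sex in the model the exposure difference rests on 2 Pb and 2 control males. No gene of 4929 passed an adjusted p of 0.05 in edgeR's quasi-likelihood test (0% called; smallest adjusted p 0.154). At an unadjusted p under 0.05, 91 genes were higher and 83 lower (3.53% in all). A fit with all 8 mice, added after the values were seen, called 0 of 2950 (smallest adjusted p 0.590; 67 higher, 2.27%, and 94 lower at an unadjusted p under 0.05, 5.46% in all). DESeq2 called 0 genes and limma-voom 1 (Rrad) in the 5 mice.

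With the shared barcodes removed, the 5-mouse edgeR fit called 7 of 4004 genes (0.175%). Cldn11 and Gadd45g were among those higher and Rrad, Mt3, Ttr and 1500015O10Rik lower in Pb. The 8-mouse fit without them called 0 of 2823 (smallest adjusted p 0.989; 117 at an unadjusted p under 0.05, 4.14%).

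Rrad, a small GTPase that restrains voltage-gated calcium channels (chr8:104628070-104631327, minus strand, GRCm38), had the smallest p. It was at 111, 598, 353 and 372 CPM in the Pb mice (F1, F2, M1, M2) and 660.3, 206, 965 and 871 CPM in the controls in the same order. The 3 Pb mice with at least 10 cells were all below the control males, but Pb F2 was above control F2 and the groups overlapped. The log2 fold change was -1.37 (SE 0.24; edgeR adjusted p = 0.154) in 5 mice and -1.14 (SE 0.36; adjusted p = 0.720) in 8. Without the shared barcodes it was -1.51 (edgeR adjusted p = 8.17e-04) in 5 mice, where Rrad fell, and -1.11 (adjusted p = 0.989) in 8. In the pericyte comparator of all 8 mice the log2 difference was 0.07.

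Several of the other genes of smallest p are RNAs of other cell types. Cldn11, a tight junction gene of oligodendrocytes, was called without the shared barcodes and not with them (log2 1.71; edgeR adjusted p = 0.0478), at 217, 103, 187 and 701 CPM in the Pb mice (F1, F2, M1, M2) and 56.4, 306, 149 and 110.0 CPM in the controls in the same order. All 10 oligodendrocyte markers had UMIs in these cells, summing to 0.444% to 0.817% of UMIs in the Pb mice, 0.366% to 0.787% in the controls and 3.84% in the other kept cells; their part in the Cldn11 difference was not tested. Ttr, transthyretin, the defining RNA of the choroid plexus, was at 3696, 0, 105 and 273 CPM in the Pb mice (F1, F2, M1, M2) and 0, 1998, 9.65 and 12344 CPM in the controls in the same order, and 1500015O10Rik, also abundant in the choroid plexus, at 55.4, 0, 0 and 0 CPM in the Pb mice (F1, F2, M1, M2) and 0, 0, 4.83 and 206 CPM in the controls in the same order. Both were high in the same libraries, Pb F1 and control M2, and Ttr also in control F2. The 8 choroid plexus markers summed to 0.403% of smooth muscle UMIs in Pb F1, 0.222% in control F2 and 1.31% in control M2, and to 0.00206% to 0.0372% in the other 5 mice. The Ttr difference turned positive (log2 4.13) when control M2 was left out.

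Of the remaining named genes, the astrocyte glutamate transporter gene Slc1a2 had a log2 difference of 2.61 (SE 0.58) from 78 UMIs. The 10 astrocyte markers, all with UMIs here, summed to 0.278% to 0.372% in the Pb mice and 0.308% to 0.334% in the controls, and their part was not tested. In the fit of mice with at least 10 cells, the respiratory chain gene Ndufb6 had a log2 difference of 1.47 (SE 0.38). The leucine-rich matrix protein gene Prelp differed by -1.40 (SE 0.33) and the leukocyte adhesion receptor Vcam1 by -1.29 (SE 0.34). The edgeR adjusted p-values of Slc1a2, Ndufb6, Prelp and Vcam1 in that fit ran from 0.605 to 0.846. With all 8 mice their log2 differences were 1.11, 0.86, -0.53 and -1.03 in the same order. Vcam1 was at 55.4, 20.6, 66.4 and 69.5 CPM in the Pb mice (F1, F2, M1, M2) and 64.2, 20.6, 139.9 and 198 CPM in the controls in the same order. Its difference was -0.56 without the shared barcodes, and control M1 then had 19.5 CPM. Ndufb6 was at 105, 186, 150.2 and 119 CPM in the Pb mice (F1, F2, M1, M2) and 128, 103, 43.4 and 55.4 CPM in the controls in the same order, and without the shared barcodes the Pb mice (102, 179.7, 154 and 118 CPM) no longer overlapped the controls (84.6, 94.0, 32.4 and 59.2).

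**Figure D4:**
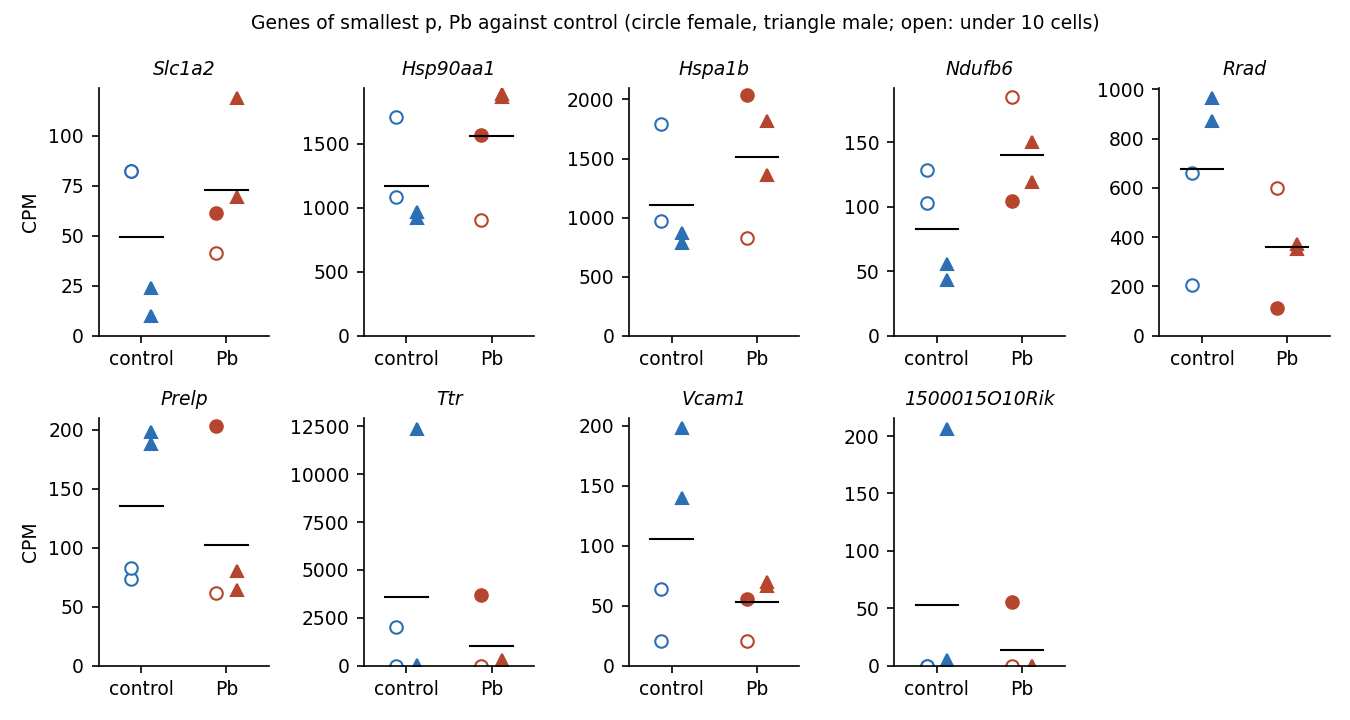
Level (CPM) in vascular smooth muscle cells of 9 of the 10 genes of smallest p for Pb against control, 1 point per mouse. Circles are females, triangles males, open symbols mice with under 10 cells, and lines the means of 4. The groups overlap in all 9 genes, and Ttr and 1500015O10Rik each have their highest point in control M2.

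Genes whose 4 Pb and 4 control levels did not overlap were 60 of 2950 with Pb higher (2.03%) and 44 with Pb lower (1.49%). They were 57 (2.02%) and 47 of 2823 (1.66%) once the shared barcodes were removed. A few of them, picked after their values were seen, show what such a gap looks like. Emp1, an epithelial membrane protein gene, was at 105, 165, 192 and 109 CPM in the Pb mice (F1, F2, M1, M2) and 36.7, 61.8, 57.9 and 55.4 CPM in the controls in the same order (log2 1.41, SE 0.32; edgeR adjusted p = 0.590, 8 mice). It kept its gap without the shared barcodes, at 109, 179.7, 198 and 102 against 28.2, 47.0, 58.4 and 50.8 CPM. Cryab, the small heat shock protein alphaB-crystallin, was at 659, 557, 587 and 839 CPM in the Pb mice (F1, F2, M1, M2) and 257, 433, 449 and 404 CPM in the controls in the same order (log2 0.79, SE 0.20; edgeR adjusted p = 0.720), and Fos, the immediate early factor, at 3400.2, 4226, 4057 and 3913 CPM in the Pb mice (F1, F2, M1, M2) and 6135, 6179, 5313 and 4331 CPM in the controls in the same order. Both also kept their gap without the shared barcodes. Actb, Junb, Abhd2 and the zinc transporter gene Slc39a1 were lower in all 4 Pb mice than in any control, but overlapped once the shared barcodes were removed. No gene of this paragraph passed the adjusted test.

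Gene lists were then set out for Pb against control. Of all 4929 genes tested in 5 mice 48.8% had a positive log2 fold change, with a median of -0.01, and no gene of any of the 17 lists was called with the shared barcodes in place. The actin-myosin list had 12 of 29 genes higher (median -0.06 in 5 mice, 0.01 in 8). Its 5 genes of the rule chose the cells through a minimum level, so their Pb differences are conditioned on that choice and are not read here. Without them 8 of 24 genes were higher in 5 mice (median -0.09) and 13 of 22 in 8 (median 0.01), with none at an unadjusted p under 0.05 in either fit. Calcium and ion channel genes had 16 of 24 higher (median 0.13), relaxation genes 7 of 15 (-0.05) and vasoactive receptors 6 of 11 (0.04).

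Heat shock and chaperone genes stood highest. Of the 25 tested, 20 were higher in Pb (median 0.37), 7 of them at an unadjusted p under 0.05, against 1.85% of all genes, and none in the other direction. In 8 mice it was 16 of 20 (50.8% of all genes; median 0.30), with 2 at that p against 2.27% of all genes. Leaving out the shared barcodes gave 16 of 22 (49.2% of all genes; 0.30) in 5 mice and 14 of 20 (48.7% of all genes; 0.36) in 8, with 7 and 3 at that p. Of all genes, in either direction, 153 of 4004 and 117 of 2823 were at that p. Hsp90aa1, a cytosolic chaperone, was at 1571, 907, 1866 and 1892 CPM in the Pb mice (F1, F2, M1, M2) and 1082, 1709.6, 965 and 918 CPM in the controls in the same order (log2 0.97, SE 0.22; edgeR adjusted p = 0.605). Hspa1b, an inducible Hsp70, was at 2039, 825, 1820.4 and 1360.4 CPM in the Pb mice (F1, F2, M1, M2) and 1788, 968, 787 and 871 CPM in the controls in the same order (log2 0.93, SE 0.24; adjusted p = 0.846). The summed list was 22662, 14780.2, 23327 and 22119.6 CPM in the Pb mice and 20514, 18785, 15688 and 12122 CPM in the controls. Pb F2 was below 3 of the 4 controls, so the groups overlapped. The pericyte comparator of the same mice had 27 of 27 tested genes higher (48.9% of all genes; median 0.41), 11 at an unadjusted p under 0.05 against 2.28% of all 7372 genes, and 0 past the adjusted p (0% of all genes).

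Immediate early genes, which respond within minutes to calcium, growth factors and handling, had the lowest median of the lists with the shared barcodes in place, with 9 of 31 higher (median -0.26) and 3 lower at an unadjusted p under 0.05, against 1.68% of all genes. In 8 mice 9 of 29 were higher (median -0.24) and 9 were lower at that p, against 3.19% of all genes. Without the shared barcodes 12 of 29 were higher in 8 mice and the median was -0.09, above that of 6 other lists, such as matrix genes (-0.23). In 5 mice it was -0.21, above that of the metal-handling genes (-0.28). Junb was at 2322, 2597, 2819.7 and 2199.6 CPM in the Pb mice (F1, F2, M1, M2) and 3787, 3439.8, 4493 and 3096 CPM in the controls in the same order (log2 -0.62, SE 0.24). Gadd45g, of the same list, rose without the shared barcodes in 5 mice (log2 1.20, edgeR adjusted p = 0.0478), against log2 0.23 with them. Without them it was at 339, 847, 840 and 588 CPM in the Pb mice (mean 654) and 451, 212, 318 and 305 CPM in the controls (mean 321). The groups overlapped, and the 8-mouse fit gave log2 1.01 (edgeR adjusted p = 0.989). In the pericyte comparator the list's median was -0.06.

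Notch genes had 4 of 17 higher (median -0.23) in 5 mice and 2 of 10 (-0.12) in 8. Their summed level was 2735, 2536, 2816 and 2924 CPM in the Pb mice and 3338, 3296, 3252 and 3492 CPM in the controls, so every Pb mouse was below every control. The means without the shared barcodes were 2720.5 and 3314 CPM, and whether every Pb mouse was then still below every control was not examined. The Notch sum was the only one of the 17 list sums without overlap. Of all single genes in 8 mice, 1.49% were lower in Pb without overlap. In the pericyte comparator 10 of the 21 tested Notch genes were higher. Notch3 differed by -0.18 (SE 0.24) and its target Hes1 by -0.44 (SE 0.27). Metal-handling genes, the list nearest to the exposure, had 8 of 18 higher (median -0.20 in 5 mice, -0.07 in 8). The metallothionein Mt1 was at 924, 845, 1405 and 928 CPM in the Pb mice (F1, F2, M1, M2) and 697, 762, 1592 and 594 CPM in the controls in the same order, with overlap between the groups. Its relative Mt3, an RNA abundant in other brain cells, was at 179, 41.2, 80.4 and 69.5 CPM in the Pb mice (F1, F2, M1, M2) and 73.4, 20.6, 270.2 and 111 CPM in the controls in the same order and fell without the shared barcodes in 5 mice (log2 -1.64; edgeR adjusted p = 0.0478), where control M1 had 350.3 CPM. Antioxidant genes had 12 of 22 higher (median 0.02) and respiratory chain genes 28 of 74 (-0.04; 0.06 in 8 mice). Unfolded protein response genes had 12 of 18 (0.21), transcription factors 10 of 25 (-0.05), TGF-beta and BMP genes 10 of 29 (-0.10), matrix genes 13 of 32 (-0.12), adhesion genes 15 of 27 (0.07) and growth factor genes 9 of 23 (-0.17). The NF-kB and cytokine list had 11 of 19 (0.03), with Il6 and Cxcl10 at its upper end. Over 90% of the UMIs of each of these lay in 1 cell of Pb M1 (92.1% and 90.9%).

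**Figure D5:**
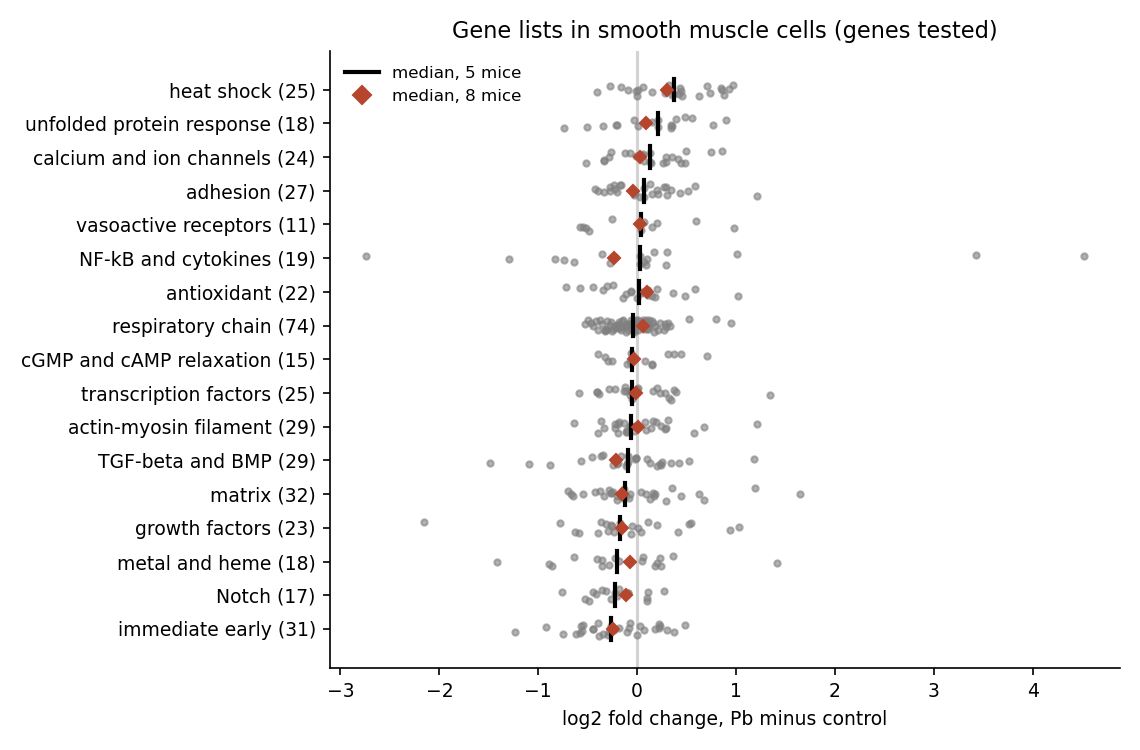
Log2 fold change of Pb minus control in vascular smooth muscle cells for the tested genes of 17 lists (grey points, 5 mice), with the median in 5 mice (black bar) and in 8 mice (red diamond). Heat shock genes have the highest median and immediate early genes the lowest, and the other medians lie within 0.25 of 0.

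Between males and females the 5-mouse fit called Xist, at 893, 701, 6.99 and 0 CPM in the Pb mice (F1, F2, M1, M2) and 642, 1071, 14.5 and 7.92 CPM in the controls in the same order (edgeR adjusted p = 1.30e-06; 1 of 4929 genes, 0.0203%). With all 8 mice the Y-linked Ddx3y was called too, at 0, 0, 136 and 119 CPM in the Pb mice (F1, F2, M1, M2) and 0, 0, 169 and 87.1 CPM in the controls in the same order (edgeR adjusted p = 0.00296; 2 of 2950, 0.0678%). The sex-linked RNAs matched the labelled sex of all 8 mice. No smooth muscle marker was called in either of these fits. Pln was called in the 5-mouse design, where Pb F1 is the only female, with no low-count filter, at 0.5% selection and without control M2. A difference of the Pb effect between the sexes could be fitted only with all 8 mice and called 0 of 3392 genes (edgeR, smallest adjusted p 0.9997; 111 at an unadjusted p under 0.05, 3.27%). Edn1, the vasoconstrictor endothelin-1, had the smallest p, at 179, 144, 433 and 134 CPM in the Pb mice (F1, F2, M1, M2) and 523, 762, 116 and 174 CPM in the controls in the same order. Both Pb females were below both control females, Pb M1 was above both control males and Pb M2 lay between those. Endothelial cells are a known source of Edn1, and the 10 endothelial markers summed to 0.939% to 1.13% of smooth muscle UMIs in the Pb mice and 0.903% to 1.57% in the controls, with control F1 the highest; their part was not tested.

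The Pb difference of the smooth muscle cells was then set against that of the pericyte comparator in the same 5 mice. Of 5447 genes 1 differed (0.0184%), Ccl2, the monocyte chemokine (log2 -5.13, SE 0.76; edgeR adjusted p = 0.0114). The counts behind it are few. The smooth muscle cells held 2, 2, 5 and 0 Ccl2 UMIs per Pb mouse and 4, 0, 23 and 2 per control. The pericytes held 38.4, 32.7, 113 and 27.0 CPM in the Pb mice and 12.6, 29.9, 12.9 and 14.4 CPM in the controls. Control M1 was the highest mouse in the smooth muscle cells and Pb M1 in the pericytes. The call rests on both of these mice: without control M1 the edgeR adjusted p was 0.799 (log2 -2.79), and without Pb M1 the gene did not pass the low-count filter and was not tested. Among the other genes of smallest p, Cebpb, an inflammatory transcription factor, differed by -1.42 (adjusted p = 0.0545) and Bambi, a pseudoreceptor of the TGF-beta family, by 2.07 (adjusted p = 0.555). With all 8 mice the hemoglobin genes Hbb-bt, Hba-a1 and Hba-a2 were called as well (4 of 5597, 0.0715%). Hbb-bt was at 724 CPM in control F1 and at 0 to 41.2 elsewhere, and the deep shared-barcode cell of control F1 held 465 Hba-a1 UMIs. Without the shared barcodes Ccl2 was the 1 gene called in 8 mice, and also in 5 (edgeR adjusted p = 0.0186 and 0.00229).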

How the data were processed

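Per the labels, libraries were made on the 10x Chromium, and per the submitters' processing notes Cell Ranger, Seurat and mm10 were used, with versions not given in the sources used here. The authors deposited UMI counts per gene and cell for 8 mice. No cell of the table had fewer than 999 genes.

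Cells with over 20% mitochondrial UMIs (13 genes) were removed. Doublets were kept: Scrublet (scanpy 1.11.5) marked 0.628% of cells. The smooth muscle rule, the comparators and the gene lists were chosen with earlier results of these data known. UMI counts were summed per mouse, and mice with at least 10 smooth muscle cells were tested with edgeR 4.0.16 (quasi-likelihood, TMM, filterByExpr, sex as covariate; R 4.3.3, Benjamini-Hochberg over all tested genes at 0.05), with limma 3.58.1 (voom) and DESeq2 1.42.0 as alternatives. The fit across mice was also run on simulated counts with planted changes. Simulated mice differed only by depth, those changes and a common random spread. That run does not cover differences between mice in RNA of other cells, single deep cells or shared barcodes. Shares were compared with an exact permutation test over mice (70 arrangements; scipy 1.17.1). The CPM are this work's: UMIs per 1000000 UMIs of the cells concerned.

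Named genes were those of the rule and the markers, the 20 with the highest ratio to the rest at 50 CPM or more, for Pb and for sex the called genes or, where none was called, the 5 of smallest p in each direction, for the interaction and the cell group the 3 of smallest p in each direction, and of each list its most abundant tested members and those at an unadjusted p under 0.01. Of these, 1 gene and 1 list are not reported here. Others were chosen after their values were seen. Promoter windows and gene positions come from RefSeq (GRCm38.p6) and GENCODE (GRCm38).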

Additional observations from a re-analysis of the deposited data

Results flagged for a closer look

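In groups of 4 mice the highest or lowest value was compared with its nearest neighbour over the group's range, and 9 of 102 groups had a sample far from the others. Chance alone flags about 1 in 20 groups. Among Pb mice, F1 stood apart and high for the choroid plexus RNAs Ttr (3696 CPM) and 1500015O10Rik (55.4 CPM) and for Prelp (203 CPM), and F2 for Sncg (1113 CPM). Pb F2 was also apart and low for the summed heat shock list (14780.2 CPM). Among controls M2 stood apart and high for Ttr (12344 CPM) and 1500015O10Rik (206 CPM), and for the contractile genes Cnn1 (103 CPM) and Pln (499 CPM).

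The Pb difference of Ccl2 in the smooth muscle cells minus that in the pericyte comparator was -5.13 on the log2 scale (SE 0.76; edgeR adjusted p = 0.0114, with 4.31e-08 to 0.799 over the alternatives in which it was tested; without Pb M1 it did not pass the low-count filter). It rests on few Ccl2 UMIs in the smooth muscle cells of the mice fitted: 2, 5 and 0 in Pb F1, M1 and M2, and 23 and 2 in control M1 and M2.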

How the results depend on the processing

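The exposure comparison called 0 genes in 5 mice and 7 without the shared barcodes. It called 54 with cells selected at 0.5% of UMIs, where control M1 was the only control with at least 10 cells and is assumed to vary like the Pb mice. It called 16 with no low-count filter, 3 at a mitochondrial maximum of 10% and 1 with limma-voom. Leaving out 1 mouse gave 0 to 26, the most without control M2. The replicate number as a block gave 8 calls, but same-numbered mice did not deviate together (correlations -0.069 to 0.107), so the numbers do not pair the mice. Ttr (log2 -5.09; -6.09 to 4.13 leaving out 1 mouse) reversed to 4.05 at 0.5% selection, 4.13 without control M2, 1.15 in 8 mice with limma-voom and 1.62 in 8 mice without control M2. The sex comparison called 1 gene and, under alternatives, 2 (8 mice, also with DESeq2 or without shared barcodes), 6 (without shared barcodes), 11 (no filter), 12 (0.5% selection) and 0 (8 mice, limma-voom). Leaving out 1 mouse gave 2 to 15. The comparison with pericytes called 1 gene, 4 with 8 mice, 2 with limma-voom and 14 at 0.5% selection, and 1 to 13 leaving out 1 mouse. The Pb minus control difference in the share ran from -1.21 to 0.155 percentage points leaving out 1 mouse, the latter without control M1, and was -2.78 as a share of mural cells. The male minus female difference was 1.13 at 0.5% selection, 0.725 at 1% and 11.1 as a share of mural cells, none at the smallest exact p. Leaving out 1 mouse gave 1.23 to 2.09, where the exact test cannot go below 0.0571. Apart from the differences by construction named here, the cause was not tested. Selections at 1% and without cells above the endothelial level could not be fitted at 10 cells per mouse and were run with 8 mice only. The 8-mouse fits, the share between sexes and the removal of shared barcodes were chosen after seeing the data. With 5 to 35 cells per mouse, genes of low level had too few UMIs to be tested.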
